A study of Mus musculus with 55 samples.

Results

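The replication licensing genes are the 10 genes Mcm2, Mcm3, Mcm4, Mcm5, Mcm6, Mcm7, Cdc6, Cdt1, Gmnn and Orc1, taken by their symbols from tables of pre-mRNA levels in mouse embryonic stem (ES) cells leaving mitosis. All 10 were found among the 9911 genes listed for CCNA-GFP cells and among the 10237 listed for CTCF-AID cells. The authors kept RefSeq curated genes whose mean passed 0.5 TPM, either for the asynchronous group or for 2 or more released samples. Shares, medians and percentiles of all genes refer to these listed genes, not to the whole genome. The rule leaves out the mitotic level, so it can favour genes that rise from mitosis, which was not tested. Both lines derive from E14Tg2a ES cells and were grown in serum and LIF. CCNA-GFP cells carry a cyclin A-GFP reporter of the cell cycle, and CTCF-AID cells, a single clone, carry CTCF fused to a degron that auxin (IAA) makes unstable. Mitotic cells of both lines were obtained with the CDK1 inhibitor RO-3306 (10 µM for 4 h), then nocodazole (50 ng/ml for 4 h) and shake-off, and were released for 20 to 120 min. In the +IAA arm of CTCF-AID, IAA at 0.5 mM was added 2 h before release and kept on during it, and asynchronous +IAA cells had IAA for 4 h. The −IAA arm and CCNA-GFP cells had no IAA. The 19 CCNA-GFP libraries comprise 3 of mitotic cells, 3 of asynchronous cells, 2 at each of 20, 30, 40, 60, 90 and 120 min, and 1 at 50 min. The 36 CTCF-AID libraries comprise, in each arm, 3 of mitotic cells, 3 of asynchronous cells and 2 at each of 20, 40, 50, 60, 90 and 120 min.

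Licensing loads the replicative helicase onto DNA before S phase. The origin recognition complex, of which ORC1 is the largest subunit, binds DNA and recruits CDC6, and CDT1 brings the hexamer of MCM2 to MCM7, which is then closed around the double helix. Loading is allowed from late mitosis through G1 and is blocked in S and G2, when geminin, the product of Gmnn, holds CDT1, and CDT1 and CDC6 are also controlled by phosphorylation and degradation. Many of these genes are known targets of E2F factors, and ES cells, with their short G1, are known for abundant licensing proteins. Pre-mRNA still holds its introns, so its level follows ongoing transcription rather than the amount of stored mRNA or protein.

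Levels are given in TPM, a scale divided by transcript length, for the unspliced form of each gene. TPM hold no read counts, so the depth behind each value is unknown. The listed TPM summed to 13747 to 42576 per library in CCNA-GFP and to 17702 to 43370 in CTCF-AID, and the totals were highest at 50 to 90 min, when most genes were high. A change from mitosis is therefore given with that of the median gene. Of 8 ES cell markers 7 were listed in both tables (not Sox2), with sums of 28.1 to 138 TPM. Of 6 fibroblast and feeder markers none was listed in CCNA-GFP, and Col1a1 and Thy1 summed to at most 3.42 TPM in CTCF-AID. Of 8 endoderm and neural markers Pax6 and Tubb3 were listed, with sums of at most 5.55 TPM in CCNA-GFP and 12 TPM in CTCF-AID. Markers that are not listed did not meet the authors' rule for listing, and their levels are not known here. Each sample is a bulk population, in which fewer cells transcribing a gene and less RNA per cell cannot be told apart.

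The genes lie on 8 chromosomes of GRCm38 (mm10), and each is protein coding. Mcm2 spans chr6:88883474-88898780, Mcm3 chr1:20802968-20820312, Mcm4 chr16:15623897-15637400, Mcm6 chr1:128331590-128359664, Mcm7 chr5:138164583-138172422 and Gmnn chr13:24751845-24761923, all on the minus strand. Mcm5 spans chr8:75109569-75128439, Cdc6 chr11:98907801-98923940, Cdt1 chr8:122568015-122573554 and Orc1 chr4:108579423-108614833, all on the plus strand. RefSeq promoter sequence (GRCm38.p6, 250 bases before to 50 after each start) was matched for 8 of the 10 genes, all but Mcm4 and Gmnn. They were searched on both strands for the E2F letters TTTCCCGC, TTTGGCGC, TTTCGCGC and TTTGCCGC, which can overlap each other. At least 1 match was present in 7 of the 8 genes, the exception being Mcm2, against 5.02% of 8459 listed genes with such a sequence. The starts used here are those of RefSeq and can differ from the ends of the spans above. Mcm7 had promoters at chr5:138171834-138172133 and chr5:138171217-138171516, both inside its span, and the latter held 0 E2F matches. The letters CCAAT were present in 6 of 8 (43.9% of listed genes), GGGCGG in 6 of 8 (71.0%), and TTTGAA or TTCGAA, the letters of the cell cycle homology region, in 2 of 8, Mcm2 and Mcm7 (15.7%). A match is a string of letters and not evidence of a bound factor.

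The stretches below carry the E2F letters in capitals and are shown because 7 of the 8 genes hold these letters. They are written 5′ to 3′ on the strand of the gene. The Mcm5 stretch is chr8:75109329-75109448 (plus strand), where a match on each strand overlaps the other. The Mcm6 stretch is chr1:128359706-128359825 (minus strand). It ends at the base before the RefSeq start, which differs from the end of the span above. It holds an overlapping pair and a single match.
Mcm5: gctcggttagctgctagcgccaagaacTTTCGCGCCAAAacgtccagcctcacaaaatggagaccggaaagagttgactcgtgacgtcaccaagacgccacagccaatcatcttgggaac
Mcm6: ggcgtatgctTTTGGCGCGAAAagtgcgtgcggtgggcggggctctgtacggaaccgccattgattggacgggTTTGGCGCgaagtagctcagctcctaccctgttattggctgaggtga

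Shorter windows of 30 bases show the matches of the other genes. The Orc1 window is chr4:108579416-108579445 (plus strand), the Cdc6 window chr11:98908002-98908031 (plus strand), the Cdt1 window chr8:122568035-122568064 (plus strand), the Mcm3 window chr1:20820275-20820304 (minus strand) and the Mcm7 windows chr5:138172030-138172059 and chr5:138171849-138171878 (minus strand). Mcm3 held a further match, downstream of the window shown. The labels of the Mcm7 windows refer to the RefSeq start of the promoter at chr5:138171834-138172133. Both windows lie inside the span of Mcm7 given above.
Orc1: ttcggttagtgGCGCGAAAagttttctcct
Cdc6: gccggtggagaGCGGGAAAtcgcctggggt
Cdt1: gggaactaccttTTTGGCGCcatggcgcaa
Mcm3: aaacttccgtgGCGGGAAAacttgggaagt
Mcm7 upstream: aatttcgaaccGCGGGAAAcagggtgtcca
Mcm7 at the start: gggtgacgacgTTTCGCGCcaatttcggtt

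All 10 genes were detected in mitotic cells, at means of 1.28 to 7.26 TPM in CCNA-GFP and 2.44 to 13.7 TPM in CTCF-AID −IAA. In CCNA-GFP the order in mitosis was headed by Mcm7 (7.26 ± 2.04 TPM, SD, n = 3), Orc1 (6.16 ± 0.904) and Mcm5 (6.08 ± 1.34), whose libraries overlapped each other. Cdc6 was the lowest, at 1.28 ± 0.335 TPM, with Gmnn (2.08 ± 0.736), Cdt1 (2.16 ± 0.349) and Mcm6 (2.31 ± 0.658) above it, and the libraries of these 3 overlapped each other, as the highest Cdc6 library did the lowest of Gmnn and Mcm6. In CTCF-AID −IAA Mcm5 headed the order (13.7 ± 2.32 TPM) and Cdc6 and Gmnn again stood at its foot (2.44 ± 0.582 and 2.93 ± 0.762 TPM). Among all listed genes of CCNA-GFP, mitotic Mcm7 was at the 98.0th percentile and mitotic Cdc6 at the 62.0th. The tables of the lines were normalized separately, so levels are not compared between lines.

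**Figure D1:**
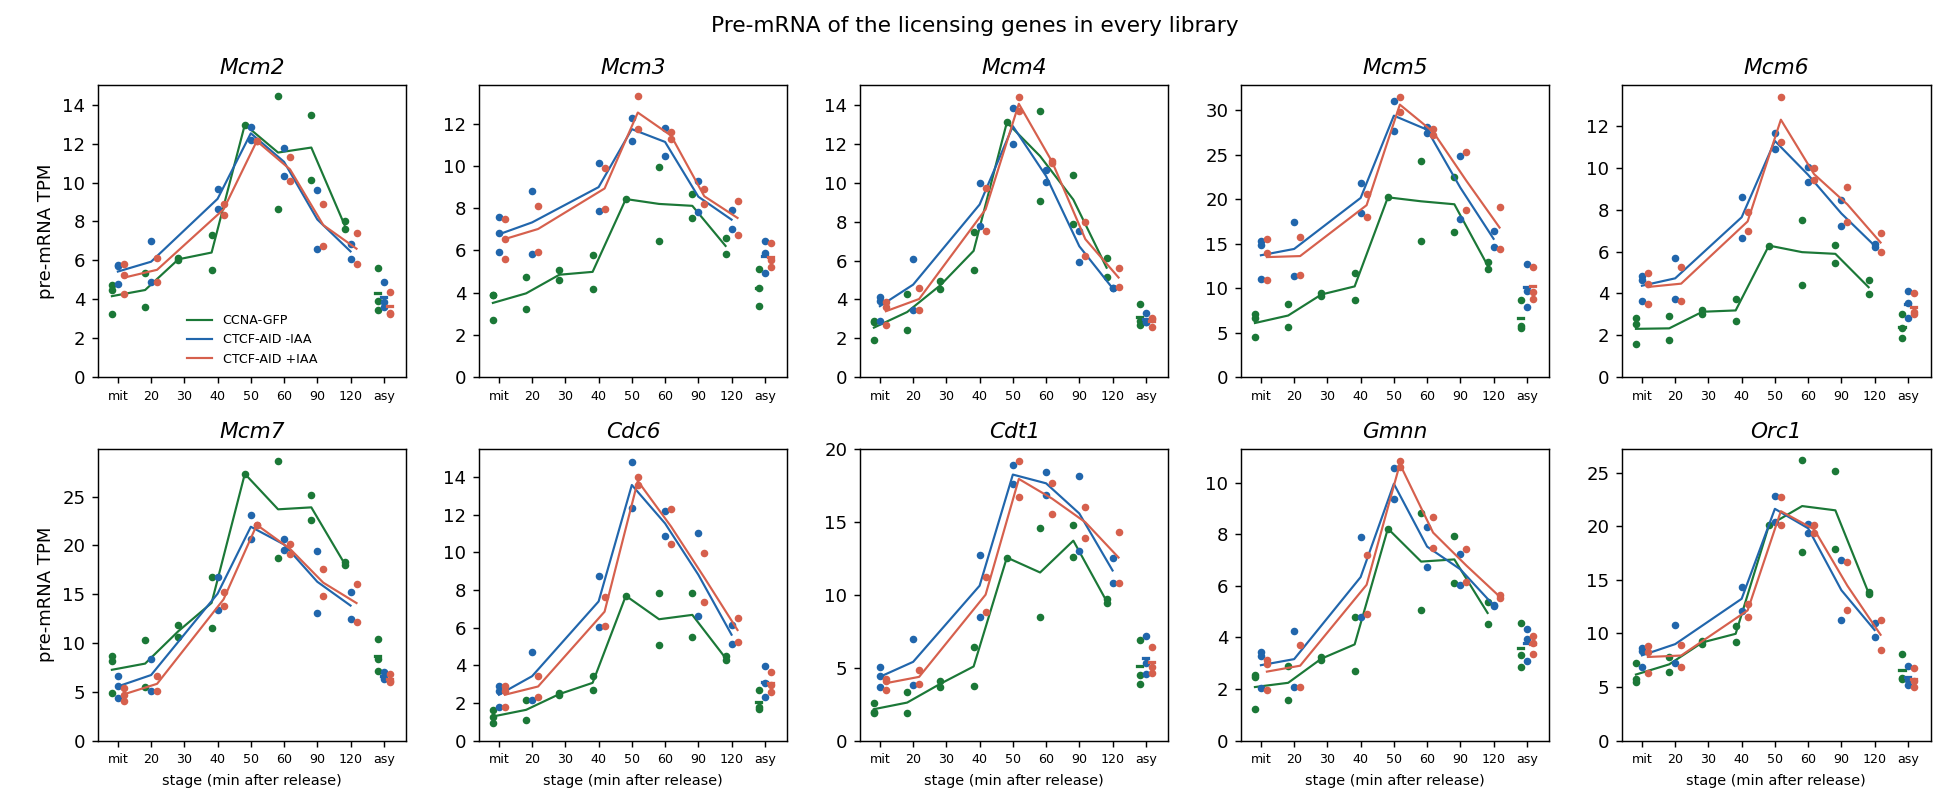
Pre-mRNA TPM (linear axis from 0) of each licensing gene in every library, against the stage: mitotic cells (mit), minutes after release, and asynchronous cells (asy). Points are libraries, lines join the means of the mitotic and released stages, and short bars are means of asynchronous cells. In both CTCF-AID arms the mean of each gene was highest at 50 min, an order that held for 6 of 10 genes with equal library totals and for 4 (−IAA) and 7 (+IAA) of 10 against 60 min in the fit with the replicate block.

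The question of the time course is when each gene resumes transcription and how far it goes. In CCNA-GFP none of the 10 genes passed the limma test at 20 min (adjusted p under 0.05), where 0% of all genes did, although 3 had an unadjusted p under 0.05 (2.55% of all genes). At 30 min again none passed, beside 0.303% of all genes, and 7 had an unadjusted p under 0.05 (11.5% of all genes). That count of 0 was 4 with values divided by their step (3.82% of all genes), 2 with a pseudocount of 0.1 (2.48%), 2 with the filter at 1 TPM (2.75%) and 3 without replicate 2 (3.12%). In the values themselves 9 of the 10 genes were above their mitotic level in both replicates at 20 min and 10 of 10 at 30 min. The share of all genes above mitosis in both replicates was not computed. The members' median log2 differences at these stages were 0.25 and 0.41, and the median gene was above 0 too, at 0.06 and 0.08. At 40 min all 10 genes were called higher, against 49.3% of all genes, and their median log2 difference from mitosis was 0.77 against 0.26 for the median gene. Without the replicate block, 5 of the 10 were called at 40 min, beside 23.8% of all genes.

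At 60 min in CCNA-GFP all 10 genes were called higher, as were 88.3% of all genes, so the call itself does not set them apart. On log2(TPM + 1) the members' median difference was 1.68 and that of all genes 0.79, and each of the 10 was above the median gene. This scale understates the change of low genes. The median level of all genes was 0.951 TPM in mitosis and 2.42 TPM at 60 min, below the mean of each member. The gap on this scale can thus depend in part on level. In TPM, the 60 min level of the members was 2.46 to 5.87 times their mitotic level, as means over 2 replicate pairs, with a median of 3.70. With libraries scaled to the same total, the median of the 10 genes was 0.44 and that of all genes 0.02, and Mcm3 alone turned below its mitotic level, at −0.05.

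Among the helicase subunits Mcm4 rose most and Mcm3 least in CCNA-GFP. Mcm4 was at 2.89, 1.93 and 2.81 TPM in mitosis, 7.49 and 5.51 TPM at 40 min, 13.1 TPM at 50 min and 13.7 and 9.05 TPM at 60 min. No library at 40 or 60 min overlapped mitosis, and the log2 difference at 60 min was 1.88 (95% interval from limma 1.58 to 2.19, adjusted p = 5.5e-10), at the 97.7th percentile of all genes. Mcm3 was at 3.90, 2.72 and 3.91 TPM in mitosis, 5.78 and 4.19 TPM at 40 min and 9.97 and 6.43 TPM at 60 min. These groups also did not overlap, and the log2 difference at 60 min was 1.10 (95% interval 0.84 to 1.36, limma adjusted p = 7.3e-08), at the 70.8th percentile. In TPM, Mcm3 was 2.46 times its mitotic level in the mean, while the median level of all genes went from 0.951 to 2.42 TPM. Mcm7, at 8.68, 4.92 and 8.18 TPM in mitosis, reached 28.7 and 18.7 TPM at 60 min, the highest level of the 10 genes there. Mcm2, Mcm5 and Mcm6 had log2 differences of 1.38, 1.67 and 1.17.

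Orc1 and Cdc6, the factors that mark the origin for loading, both rose, Cdc6 from the lower level and by the larger ratio. Orc1 was at 5.78, 5.51 and 7.20 TPM in mitosis, 10.7 and 9.21 TPM at 40 min and 26.2 and 17.6 TPM at 60 min. Cdc6 was at 1.25, 0.96 and 1.63 TPM in mitosis, 3.45 and 2.68 TPM at 40 min and 7.84 and 5.06 TPM at 60 min. For both genes every library at 40 and 60 min was above every mitotic one. The log2 difference at 60 min was 1.77 for Orc1 and 1.82 for Cdc6 (limma adjusted p = 7.4e-10 and 4.2e-10), a scale that understates low genes. In TPM, Cdc6 was 5.25 to 6.25 times and Orc1 3.19 to 4.53 times its mitotic level in the same replicates. The ratio of Cdc6 to Orc1 was 0.175 to 0.227 in mitosis and 0.288 to 0.299 at 60 min, with no overlap.

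Cdt1, the loading factor, had the largest fitted difference of the 10 genes at 60 min in CCNA-GFP, and Gmnn, whose product blocks it, a smaller one. In TPM Cdc6 was ahead of Cdt1 in replicate 2 at 60 min (5.25 against 4.39 times mitosis) and in the mean at 40 min (2.77 against 2.59 times). Cdt1 was at 1.99, 1.93 and 2.56 TPM in mitosis, 6.42 and 3.75 TPM at 40 min, 14.6 and 8.45 TPM at 60 min and 12.6 and 14.8 TPM at 90 min. Its log2 difference at 60 min was 2.06 (95% interval 1.68 to 2.45, limma adjusted p = 2.7e-09), at the 99.0th percentile of all genes. Gmnn was at 2.47, 1.23 and 2.53 TPM in mitosis, 4.78 and 2.68 TPM at 40 min and 8.83 and 5.06 TPM at 60 min. Its libraries at 60 min were all above mitosis, with a log2 difference of 1.49 (limma adjusted p = 4.4e-09).

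**Figure D2:**
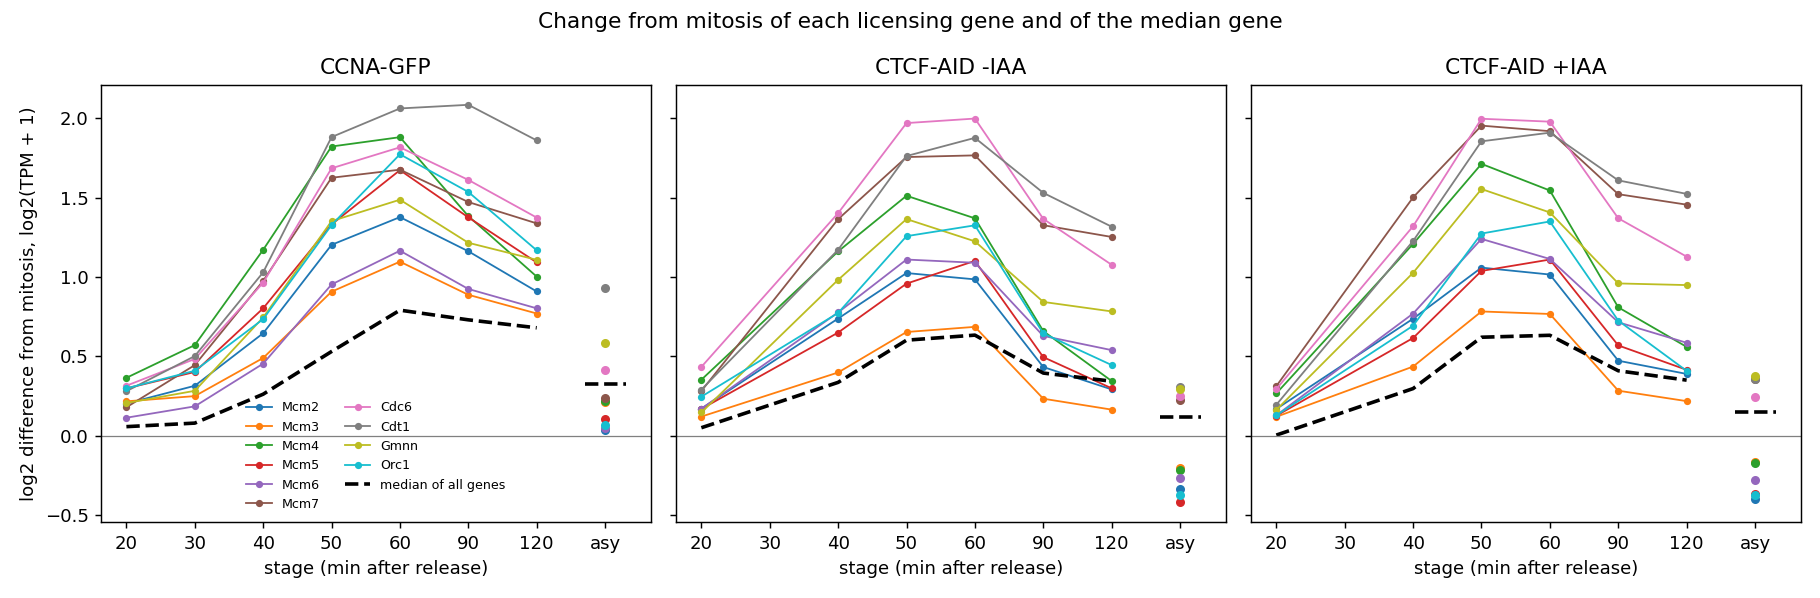
Log2 difference from mitosis, on log2(TPM + 1) as fitted by limma, of each licensing gene (coloured points and lines) against the stage, with the median of all listed genes dashed, for each line and arm. From 20 to 60 min each gene lies above the dashed line in each panel. With libraries scaled to the same total, Mcm3 falls below it in CTCF-AID at 40 to 60 min and in CCNA-GFP at 60 min. The scale understates the change of low genes, and the median level of all genes was below that of each licensing gene. The 50 min point of CCNA-GFP is a single library.

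In CTCF-AID −IAA none of the genes was called at 20 min (0% of all genes, 2 members and 3.88% of all genes with an unadjusted p under 0.05), and all 10 were called higher at 40, 50 and 60 min, beside 63.3%, 79.1% and 84.8% of all genes. Their median log2 difference at 60 min was 1.28, against 0.63 for the median gene. With the same total in each library it was 0.42 against 0.06, and Mcm3 was then called lower at 40, 50 and 60 min, as were 36.7%, 33.6% and 31.1% of all genes. Cdc6 and Cdt1 led at 60 min and Mcm3 was again last. Cdc6 went from 2.89, 1.78 and 2.64 TPM in mitosis to 12.3 and 14.8 TPM at 50 min and 12.2 and 10.9 TPM at 60 min. Its log2 difference at 60 min was 2.00 (limma adjusted p = 2.1e-10), at the 99.4th percentile of all genes. Mcm3 went from 7.57, 5.91 and 6.81 TPM in mitosis to 12.3 and 11.2 TPM at 50 min and 11.8 and 10.5 TPM at 60 min, with a log2 difference of 0.69 (limma adjusted p = 3.7e-05), at the 54.5th percentile. In TPM, Mcm3 was 1.67 times its mitotic level at 60 min in the mean, while the median level of all genes went from 1.26 to 2.55 TPM. Mcm7, with a log2 difference of 1.77 at the 98.4th percentile, and Mcm6, with 1.09 at the 82.9th, show how far subunits of the same hexamer differed in this line. Against mitosis, 9 genes were still called higher at 90 min (74.8% of all genes) and 7 at 120 min (69.6%), where Mcm2, Mcm3 and Mcm5 were not. In CCNA-GFP all 10 were at both stages (89.1% and 90.2% of all genes). These late calls depend on the scaling. With equal library totals 6 were called higher at 90 min (31.8% of all genes) and 2 at 120 min (28.7%) in CCNA-GFP, where Mcm3 was called lower at 120 min (23.5%) and Mcm2 and Mcm6 were also below 0. In −IAA, 4 were then called higher at each stage (34.5% and 32.0%), Mcm3 lower at 90 min (25.6%), and Mcm2, Mcm3 and Mcm5 lower at 120 min (25.9%).

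The highest mean fell at 50 min for all 10 genes in both CTCF-AID arms and for 8 of 10 in CCNA-GFP, where Orc1 was highest at 60 min and Cdt1 at 90 min. The replicates sequenced differ between these stages, so the order was also read inside single replicates. In replicate 1 of CTCF-AID, 8 of 10 genes were higher at 50 than at 60 min without IAA (all but Cdt1 and Mcm5) and 10 of 10 with IAA. In CCNA-GFP no replicate had both 50 and 60 min. In its replicate 3 only 3 of 10 genes were higher at 50 than at 90 min, so the stage of the highest level is not settled there. In the fit with the replicate block, which adjusts for which replicates each stage holds, the difference from mitosis was larger at 60 than at 50 min for 10 of 10 genes in CCNA-GFP, 6 of 10 in CTCF-AID −IAA and 3 of 10 in +IAA. The order of 50 and 60 min thus depends on the treatment of replicates, and the 2 stages were not tested against each other. With the same total in each library, 50 min was the highest stage for 6 of 10 genes in each CTCF-AID arm and for 7 in CCNA-GFP.

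After the peak most of the genes fell. From 60 to 120 min, 7 of 10 were called lower in CCNA-GFP (28.5% of all genes), with a median log2 difference of −0.41 against −0.11 for all genes. The CCNA-GFP count was not stable. Without replicate 1, which leaves 1 library at each stage and takes the spread from the other groups, 1 of the 10 was called (6.37% of all genes). The count was also 1 without the replicate block (12.1%) and 1 with values divided by their step (13.9%). In TPM 10 of 10 genes were lower at 120 than at 60 min in replicate 1 and 9 of 10, all but Cdt1, in replicate 2. In CTCF-AID −IAA all 10 were called lower (53.1% of all genes), with a median of −0.63 against −0.27. Equal library totals left 7 called in CTCF-AID −IAA (26.5% of all genes), all but Cdt1, Gmnn and Mcm7, and 4 in CCNA-GFP (21.7%). Each of the 10 genes was below 0 and below the median gene in each line and arm, also with the same total in each library. Mcm4 had the lowest value in both lines. In CCNA-GFP it was at 13.7 and 9.05 TPM at 60 min (replicates 1 and 2) and at 6.13 and 5.13 TPM at 120 min (log2 difference −0.88, limma adjusted p = 0.00026), at the 2.25th percentile of all genes. In CTCF-AID −IAA it was at 10.6 and 10.1 TPM and then at 4.56 and 4.58 TPM (−1.03, limma adjusted p = 4.8e-06), at the 1.8th percentile. Cdt1 moved least in CCNA-GFP, at 14.6 and 8.45 TPM at 60 min and 9.43 and 9.70 TPM at 120 min, so that its replicates went opposite ways, and was not called (−0.20, limma adjusted p = 0.44).

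Licensing pre-mRNA had higher TPM at 120 min than in the cycling population, as most listed genes did. Amounts per cell were not measured. At 120 min all 10 genes were called higher than in asynchronous cells in CCNA-GFP (63.4% of all genes, members' median 0.90 against 0.35) and in CTCF-AID −IAA (51% of all genes, 0.76 against 0.23). Each gene was also above the median gene in both, under each of the 3 scalings. With values divided by their step, 5 of the 10 were called in CTCF-AID −IAA, beside 20.9% of all genes. Mcm7 was at 18.3 and 18.0 TPM at 120 min in CCNA-GFP and at 7.16, 8.32 and 10.4 TPM in asynchronous cells (log2 difference 1.10, limma adjusted p = 3.4e-05). Orc1 was at 13.7 and 13.9 TPM at 120 min and at 5.71, 5.83 and 8.08 TPM in asynchronous cells (1.10, limma adjusted p = 3.3e-06). Gmnn had the smallest difference, 0.52, with 5.39 and 4.50 TPM at 120 min and 3.31, 2.86 and 4.56 TPM in asynchronous cells, which overlapped.

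Between asynchronous and mitotic cells the licensing genes took both directions. In CTCF-AID −IAA, Mcm2, Mcm5, Mcm6 and Orc1 were called lower in asynchronous than in mitotic cells, where 5.25% of all genes were called lower, and Gmnn was called higher, where 34.3% were. The median log2 difference of the 10 genes was −0.21 and that of all genes 0.12. Orc1 was at 8.33, 6.86 and 8.67 TPM in mitosis and at 5.69, 5.17 and 6.94 TPM in asynchronous cells. It was lower in each of the 3 replicate pairs though the ranges overlapped slightly, with a log2 difference of −0.37 (limma adjusted p = 0.015), at the 2.3th percentile of all genes. Mcm5 was at 15.3, 11.0 and 14.8 TPM in mitosis and 9.63, 7.84 and 12.8 TPM in asynchronous cells (−0.42, limma adjusted p = 0.014). It too was lower in each pair, at the 1.6th percentile. Mcm3 and Mcm4 were below mitosis in each pair as well but were not called (−0.20 and −0.21).

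The remaining genes lay on the other side. In CTCF-AID −IAA, Cdc6, Cdt1 and Gmnn were above their mitotic level in 3 of 3 pairs and Mcm7 in 2 of 3. Gmnn was at 3.28, 2.05 and 3.44 TPM in mitosis and 3.92, 3.11 and 4.32 TPM in asynchronous cells (0.30, limma adjusted p = 0.038). In CCNA-GFP, Cdc6, Cdt1 and Gmnn were called higher in asynchronous cells (70.4% of all genes were), while 0 of the 10 were called lower by limma (1.97% of all genes were). The 3 genes called higher were also the only ones with an unadjusted p under 0.05. With equal library totals this turned: 7 were below 0, 5 of them called lower (Mcm2, Mcm3, Mcm5, Mcm6 and Orc1, beside 20.3% of all genes), and 1 was called higher (24.8%). Cdt1 was at 1.99, 1.93 and 2.56 TPM in mitosis and 3.92, 4.52 and 6.92 TPM in asynchronous CCNA-GFP cells, with no overlap (0.93, limma adjusted p = 7.1e-05). The other 7 genes had differences of 0.04 to 0.24, all under the median gene at 0.33. In +IAA cells Mcm2, Mcm5, Mcm6 and Orc1 were again the genes called lower (5.89% of all genes), and Gmnn and Mcm7 were called higher (40.9%). Relative to the median gene, Mcm2 to Mcm6 and Orc1 were below it in each line and arm under each of the 3 scalings, and Cdc6, Cdt1 and Gmnn above it.

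**Figure D3:**
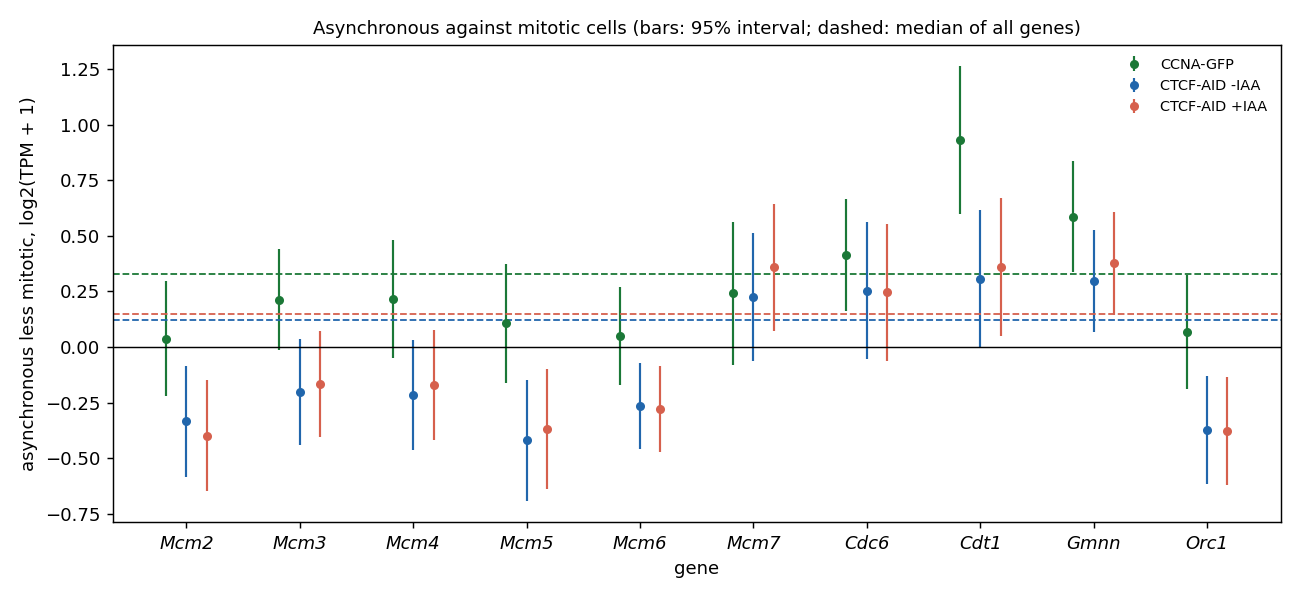
Asynchronous less mitotic cells on log2(TPM + 1) for each licensing gene, with 95% intervals from limma, in each line and arm, and the median of all listed genes as dashed lines. Mcm2 to Mcm6 and Orc1 lie below 0 in CTCF-AID and under the dashed line in all groups, but Mcm3 and Mcm4 turn above 0 in CTCF-AID when values are divided by their step.

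The calls between asynchronous and mitotic cells rest on the pairing of libraries by replicate. Without the replicate block 0 of the 4 genes were called lower in either CTCF-AID arm (1.24% of all genes in −IAA and 1.75% in +IAA), and without replicate 3 only 1 was in each arm (2.62% and 3.19%). The genes called higher there numbered 0 without the block or without replicate 3 in each arm (11.6% to 26.9% of all genes), and 4 without replicate 1 (27.0% and 37.5%). In CCNA-GFP 1 gene was called higher without the block (46.7%) and 5 without replicate 1 (67.8%). With values divided by their step 0 were called lower in each arm (1.51% and 2.19% of all genes), while equal library totals gave 6 in each (21.4% and 22.4%).

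Ratios between genes inside a library do not depend on a factor shared by all its values. The share of Mcm7 in the summed TPM of Mcm2 to Mcm7 was 13.5 to 15.1% in mitotic CTCF-AID −IAA cells, 21.6 to 23.0% at 60 min, 24.4 to 26.6% at 120 min and 18.2 to 22.2% in asynchronous cells. Mitosis did not overlap any of these groups, and 60 and 120 min did not overlap each other. In CCNA-GFP the same share was 26.0 to 29.8% in mitosis and 32.3 to 34.1% at 120 min, while at 60 min (29.1 to 29.9%) it overlapped mitosis, and in asynchronous cells (27.4 to 32.8%) it overlapped both mitosis and 120 min. The share of Mcm3 was 16.3 to 18.1% in mitosis, 11.7 to 13.0% at 60 min and 16.8 to 18.2% in asynchronous CTCF-AID −IAA cells, so that 60 min lay below both other groups. In CCNA-GFP it was 13.3 to 14.4% in mitosis, 10.1 to 10.3% at 60 min and 13.4 to 16.1% in asynchronous cells. Mcm4 did the reverse, with 9.53 to 10.2% in mitosis, 13.9 to 14.5% at 60 min and 9.73 to 10.8% at 120 min in CCNA-GFP.

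The ratio of Cdt1 to Gmnn, the loading factor over its inhibitor, was 1.29 to 1.79 in mitotic CTCF-AID −IAA cells. It was 2.22 to 2.50 at 60 min, 2.05 to 2.40 at 120 min and 1.35 to 1.66 in asynchronous cells, so that both released stages lay above both other groups. In +IAA cells it was 1.31 to 1.79, 2.04 to 2.08, 1.91 to 2.59 and 1.21 to 1.59 in the same order of stages. In CCNA-GFP it was 0.803 to 1.57 in mitosis, 1.66 to 1.67 at 60 min, 1.75 to 2.15 at 120 min and 1.18 to 1.58 in asynchronous cells. With 2 or 3 libraries per group these ratios were not tested.

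**Figure D4:**
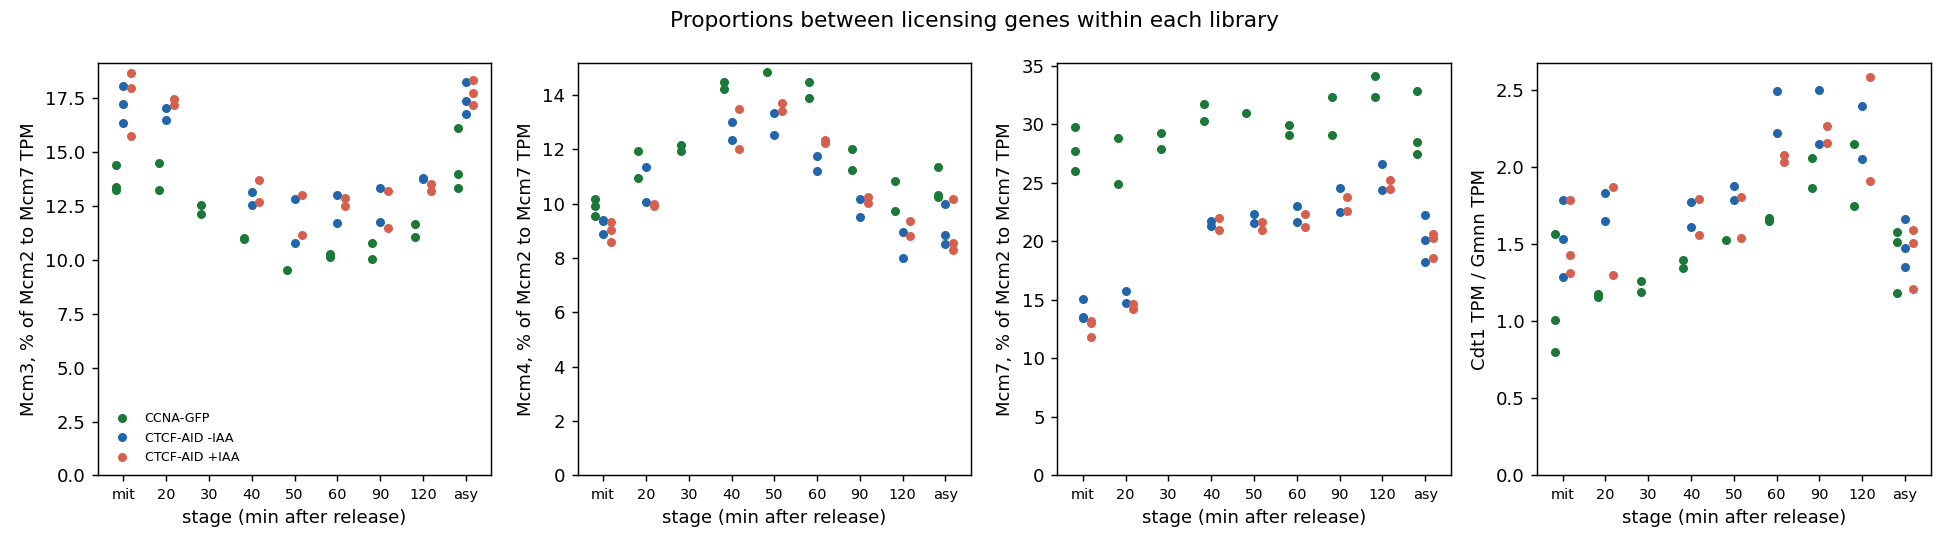
Proportions between licensing genes in every library against the stage, on axes from 0: the shares of Mcm3, Mcm4 and Mcm7 in the summed TPM of Mcm2 to Mcm7 (%), and the ratio of Cdt1 to Gmnn TPM. In CTCF-AID the Mcm7 share lies at 11.8 to 15.1% in mitotic cells and at 24.4 to 26.6% at 120 min. The Mcm3 share lies lower at 40 to 120 min than in mitotic or asynchronous cells in each line and arm.

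Loss of CTCF was compared at each stage of CTCF-AID as +IAA against −IAA. None of the 10 licensing genes was called at any stage by limma (adjusted p under 0.1 and an absolute log2 difference over 0.2), where 0% of all genes were in mitosis and at 20 and 40 min and 1.01% in asynchronous cells, and 0 had an unadjusted p under 0.05 at any stage. The share of all genes called was 0.283% and 0.225% for 50 and 60 min, and 0.733% and 0.586% for 90 and 120 min. For the mean over the 6 released stages, 1.72% of all genes were called and none of the members. The members' differences there ran from −0.06 (Cdt1) to 0.03 (Mcm4), with a median of −0.01, against −0.02 for the median gene. At 60 min Mcm5 was at 28.2 and 27.5 TPM without and 27.2 and 27.9 TPM with IAA, and Cdc6 at 12.2 and 10.9 TPM without and 12.3 and 10.4 TPM with IAA. The arms overlapped for both genes.

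A missed call does not show that the arms were alike, so the intervals are given. For the mean over released stages the 95% intervals of 5 of 10 genes (Mcm2, Mcm3, Mcm4, Mcm6 and Mcm7) lay inside ±0.2, and those of all 10 between −0.25 and 0.23. At single stages they reached from −0.68 to 0.60. These intervals leave out the pairing by replicate. With the replicate block, those over released stages lay inside ±0.2 for 9 of 10 genes, all but Cdt1, and those of all 10 between −0.21 and 0.16. At single stages they then reached from −0.59 to 0.47, and again 0 members were called by limma or had an unadjusted p under 0.05 at any stage. The block raised the share of all genes called to between 0.987% and 1.71% at 50 to 120 min, 2.43% in asynchronous cells and 2.12% for the mean over released stages. In mitosis 10 of 10 differences were below 0, the lowest being −0.18 for Mcm7, which was at 6.63, 4.42 and 5.62 TPM without and 4.73, 4.09 and 5.41 TPM with IAA. At 20 and 40 min 10 of 10 were again below 0, the lowest being −0.21 (Cdt1) and −0.11 (Orc1), beside −0.06 and −0.05 for the median gene. At 120 min 9 of 10 were above 0, with values up to 0.13. These directions depend on the scaling: with equal library totals 3 of 10 were above 0 in mitosis, 5 at 20 min and 7 at 40 min, and with values divided by their step 5 were in mitosis, 0 at 20 min and 6 at 40 min. Within replicate pairs, Mcm3, Mcm4, Mcm7, Cdt1 and Gmnn were lower with IAA in 3 of 3 in mitosis, and Mcm2, Mcm7 and Orc1 in 3 of 3 in asynchronous cells. The share of all genes lower in each pair was not computed, so these directions do not set the members apart. The effect after release was also compared with that in asynchronous cells in the same fit, and no member was called (adjusted p under 0.1, 0.00977% of all genes). In the +IAA arm itself, 0 genes were called at 20 min by limma (0% of all genes, 0 with an unadjusted p under 0.05), and all 10 were called higher than in mitosis at 40, 50 and 60 min (58.7%, 78.2% and 82.2% of all genes), with a median of 1.38 at 60 min against 0.63 for the median gene. At 40, 50 and 60 min Mcm3 was below 0 with equal library totals, and the other members were above 0. At 90 and 120 min 9 were called higher (73.8% and 68.2%), all but Mcm3. With equal library totals Mcm3 was called lower at both stages (27.4% and 28.7% of all genes), 4 were called higher at 120 min (33.5%), and Mcm2, Mcm5 and Orc1 were also below 0 there. From 60 to 120 min 9 were called lower (50.8%), all but Cdt1 (7, without Gmnn and Mcm7, with equal totals, where 27.2% were), and at 120 min 10 were called higher than in asynchronous cells (47.2%).

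**Figure D5:**
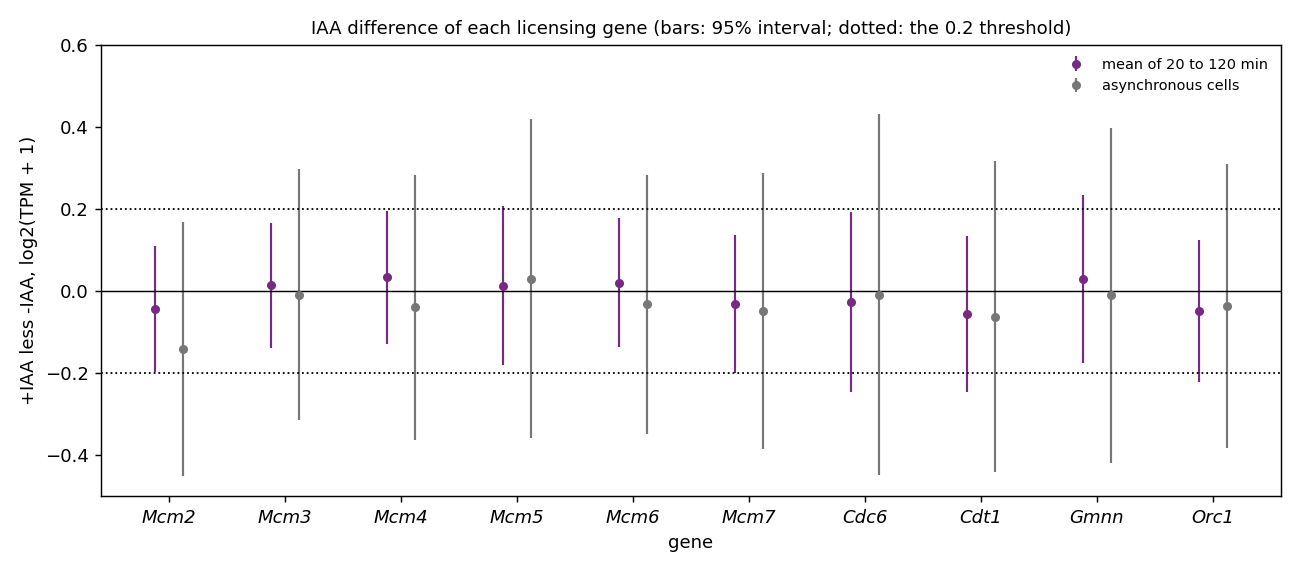
Difference between +IAA and −IAA CTCF-AID cells on log2(TPM + 1) for each licensing gene, with 95% intervals from limma, for the mean over 20 to 120 min and for asynchronous cells. Each interval includes 0, and dotted lines mark the difference of 0.2 used for calls.

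Of the 10 genes 3 have a divergent neighbour whose start lies within 1000 bases. Orc1 starts 87 bases from Prpf38a, a gene of the spliceosome, which was called higher at 60 min with a log2 difference of 1.95 in CCNA-GFP and 1.38 in CTCF-AID −IAA (limma adjusted p = 4.0e-10 and 3.8e-10). Mcm4 starts 466 bases from Prkdc, the gene of the catalytic subunit of DNA-dependent protein kinase. Prkdc was at 1.74, 0.86 and 1.94 TPM in mitotic CCNA-GFP cells and 1.18 and 0.78 TPM at 60 min (−0.20, limma adjusted p = 0.11, not called). In CTCF-AID −IAA it was called lower at 60 min (−0.35, limma adjusted p = 0.0046), so that this pair moved in opposite directions there, with Mcm4 at 1.37. By their annotated spans Mcm7 and Ap4m1, a subunit of an adaptor complex, overlap by 421 bases at their starts on opposite strands. The RefSeq starts of Mcm7 lie inside its span, so the overlap depends on the start used. Ap4m1 had log2 differences at 60 min of 1.43 and 0.98. The libraries were stranded, and whether the counting used strand is not given in the sources used here.

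Other genes of the pathway were followed by lists and, like the divergent neighbours, were fitted only on the deposited scale. Of the other ORC genes 6 of 6 were called higher at 60 min in CCNA-GFP, with a median of 0.77 beside 0.79 for all genes, of which 88.3% were called, and 5 of 6 in CTCF-AID −IAA, where 84.8% were. Orc6 and Orc4 had the largest values in CCNA-GFP, 1.79 and 1.47, and Orc3 and Orc5 the smallest, 0.44 and 0.46. From 60 to 120 min 2 of the 6 were called lower and 1 higher in each line, beside 28.5% of all genes called lower and 9.6% higher in CCNA-GFP, and 53.1% lower and 7.31% higher in CTCF-AID −IAA. Of 4 other MCM-related genes 3 were listed. Mcm8, of the helicase used in recombination, and Mcmbp, which binds MCM proteins, were called higher at 60 min in CCNA-GFP (1.37 and 1.28), and Mcm9, the partner of Mcm8, was not called (0.12, limma adjusted p = 0.20).

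Of 14 genes that turn the loaded hexamer into an active helicase 13 were listed, and 13 of 13 were called higher at 60 min in both lines, where 88.3% and 84.8% of all genes were, with medians of 1.16 in CCNA-GFP (0.79 for all genes) and 0.91 in CTCF-AID −IAA (0.63). Gins2, a subunit of the GINS complex, had 1.85 and Recql4 1.61 in CCNA-GFP, and Gins1 and Mtbp had the smallest values, 0.45 and 0.59. In asynchronous against mitotic CTCF-AID −IAA cells 3 of these 13 were called higher (34.3% of all genes) and 0 lower by limma (5.25%). In +IAA 7 were called higher (40.9%) and in CCNA-GFP 11 (70.4%). Of 10 genes of turnover and chromatin control of licensing 8 were listed in CCNA-GFP and 9 in CTCF-AID. All 8 were called higher at 60 min in CCNA-GFP (88.3% of all genes), led by Dtl (1.90) and Ddb1 (1.23), both of the ubiquitin ligase that degrades CDT1, while Fzr1 (0.76) and Cul4a (0.25) had the smallest values. In CTCF-AID −IAA 8 of 9 were called at 60 min (84.8% of all genes), with a median of 0.63, the same as the median gene, and 3 of 9 at 90 min (74.8%), with a median of 0.06 against 0.40. In CCNA-GFP 7 of 8 were called at 90 min (89.1%), with a median of 0.91 against 0.73. Ddb1 was called lower in asynchronous than in mitotic CTCF-AID −IAA cells (−0.66, limma adjusted p = 1.6e-05).

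The genes whose profile was most like the mean of the 10 licensing genes were Dtl (Pearson's r 0.98), Cdc25a, a phosphatase that activates CDKs (0.98), Psmc3, of the proteasome (0.98), Orc6 (0.98) and Sesn2 (0.98). This ranks 9564 genes over 25 means of stage and arm, less the median gene of each library, and the points share libraries, so it is a description only. Among the 10 genes themselves, Cdc6 was closest to the mean of the others (0.95) and Mcm3 farthest from it (0.61), with Cdt1 next to last (0.80).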

How the data were processed

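The series holds 55 bulk RNA-seq libraries. The authors aligned reads to mm10 with STAR, estimated TPM with RSEM on Gencode vM12 extended by a pre-mRNA isoform per gene, and deposited pre-mRNA TPM. Checked below 2 TPM, the deposited values were whole multiples, within 0.02 steps, of a step that differs by library (TPM of 2 decimals times an unnamed library factor). They keep no counts and were used as given. No deposited column was left unused.

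The members and gene lists were chosen with earlier results of these data known. All listed genes were fitted on log2(TPM + 1) with limma 3.58.1 (lmFit, eBayes with trend) in R 4.3.3, separately for each table, since the tables were normalized separately, and p-values were adjusted by Benjamini-Hochberg over all genes. Differences are thus on the log2(TPM + 1) scale, which understates the change of low genes. Stage contrasts had the replicate number as a block and were called at an adjusted p under 0.05. IAA contrasts had no block and were called at an adjusted p under 0.1 with an absolute log2 difference over 0.2. The 50 min stage of CCNA-GFP, a single library, was not called. The script was tested on simulated data.

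Replicates are independent experiments per the study's methods: replicate 1 covers all stages but 50 min in CCNA-GFP, and replicates 2 and 3 alternate between stages. Deviations from group means correlated between same-numbered libraries in 12 of 12 values of r between arms (0.513 to 0.884). So did 18 of 18 values between a stage and mitosis in CTCF-AID (0.289 to 0.833) and 9 of 9 in CCNA-GFP (0.344 to 0.802). Groups that share 3 replicates gave 3 values each, and the mitotic libraries recur, so the values are not independent. The replicate numbers were taken to pair the libraries.

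All members are named. Of each other list, at most the 2 largest and 2 smallest differences at 60 min in CCNA-GFP are named. Listed genes starting within 1000 bases of a member on the other strand, and the 5 genes most correlated with the members' mean profile, are named too. Ddb1 in asynchronous cells was named after its value was seen. Alternatives were a pseudocount of 0.1, a mean of at least 1 TPM, the same total in each library, division by the value step (both scalings change what a level is relative to), the other choice of block, no minimum IAA difference, and each replicate left out. Positions are from GRCm38 annotation. Other steps used Python 3.11.15 with scipy 1.17.1, pandas 2.3.3, numpy 2.4.6 and, for figures, matplotlib 3.10.9.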

Additional observations from a re-analysis of the deposited data

Results flagged for a closer look

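As deposited, Mcm3 differed in direction between the lines in asynchronous against mitotic cells. In CCNA-GFP the mean ratio of TPM was 1.21, higher in 3 of 3 replicate pairs, while in CTCF-AID it was 0.852 without IAA and 0.88 with IAA, lower in 3 of 3 pairs each. Neither other scaling kept this: with equal library totals its log2 difference was below 0 in CCNA-GFP too (−0.28), and with values divided by their step it was above 0 in both CTCF-AID arms (0.04 and 0.05). The difference between the lines was not tested, since their tables were normalized separately. None of the 3 contrasts was called by limma on the deposited scale, and in all 3 Mcm3 was below the median gene.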

How the results depend on the processing

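Scaling each library to the same total moved the most. In CCNA-GFP it gave 6 genes called higher than mitosis at 90 min, 2 higher and 1 lower at 120 min, 1 higher and 5 lower in asynchronous cells, and 4 lower from 60 to 120 min. In CTCF-AID −IAA it gave 1 lower at each of 40, 50 and 60 min, 4 higher and 1 lower at 90 min, 4 higher and 3 lower at 120 min, and 0 higher in asynchronous cells. In +IAA it gave 1 lower at 90 min, 4 higher and 1 lower at 120 min and 1 higher in asynchronous cells, and 6 genes were highest at 50 min in each arm. In these contrasts 24.8 to 34.5% of all genes were called higher and 20.3 to 36.7% lower. Under it some log2 differences from mitosis turned below 0. In CCNA-GFP these were Mcm3 at 60 min (−0.045), Mcm2 (−0.081), Mcm3 (−0.19) and Mcm6 (−0.071) at 120 min, and Mcm2 (−0.47), Mcm3 (−0.28), Mcm5 (−0.43), Mcm6 (−0.40) and Orc1 (−0.47) in asynchronous cells. Also below 0 there were Mcm4 (−0.24) and Mcm7 (−0.30) in asynchronous cells, Mcm3 at 40 min and Mcm3 and Mcm6 at 90 min. In −IAA they were Mcm3 at 60 min (−0.20), and Mcm2 (−0.21), Mcm3 (−0.35), Mcm4 (−0.13), Mcm5 (−0.25) and Orc1 (−0.081) at 120 min. In +IAA they were Mcm3 at 60 min (−0.12), and Mcm2 (−0.12), Mcm3 (−0.31), Mcm5 (−0.15) and Orc1 (−0.13) at 120 min. In both arms Mcm3 at 40 and 50 min and Mcm2, Mcm3 and Mcm5 at 90 min were below 0 as well. The cause was not tested. Dividing by the value step gave 4 called at 30 min, 6 higher in asynchronous cells and 1 lower from 60 to 120 min in CCNA-GFP (3.82%, 81.8% and 13.9% of all genes). In asynchronous CTCF-AID cells it gave 4 higher (66.0% and 67.1%) and 0 lower (1.51% and 2.19%) in each arm, and 5 higher at 120 min than in asynchronous −IAA cells (20.9%). A pseudocount of 0.1 gave 2 called at 30 min (2.48%) and 4 lower from 60 to 120 min (23.9%) in CCNA-GFP, and the filter at 1 TPM gave 2 at 30 min (2.75%).

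Without the replicate block, in the pairing of libraries by number, CCNA-GFP had 5 genes called at 40 min (23.8%), 1 higher in asynchronous cells (46.7%) and 1 lower from 60 to 120 min (12.1%), and asynchronous CTCF-AID cells had 0 higher (11.6% and 17.3%) and 0 lower (1.24% and 1.75%) in each arm. With the replicate block the IAA contrasts changed no call of a member at any stage. Leaving out each replicate in turn gave 0 to 3 genes called at 30 min (3 without replicate 2), 2 to 5 higher in asynchronous cells (5 without replicate 1) and 1 to 9 lower from 60 to 120 min (1 without replicate 1) in CCNA-GFP. Stages with 2 libraries are then down to 1 where they held the replicate left out, and that lone library is assumed to vary like the other groups. In asynchronous CTCF-AID cells it gave 0 to 4 higher and 1 to 4 lower without IAA, and 0 to 4 higher and 1 to 5 lower with IAA, the lowest counts all without replicate 3. The shares of all genes ranged from 0 to 3.12%, 47.0 to 67.8% and 6.37 to 33.4% in CCNA-GFP, 17.3 to 29.9% and 2.62 to 4.25% without IAA, and 26.9 to 37.5% and 3.19 to 5.38% with IAA, in the same order. Depth is unknown, so what it limits was not measured.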
